A study of Mus musculus with 4 samples.

Results

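The cytosolic ribosomal protein genes were taken from the start site table by their symbols, as those beginning with Rpl or Rps and a digit or capital letter, plus Rplp0, Rplp1, Rplp2 and Rpsa. Symbols of the form "-ps" and the Rps6k kinases were left out. This gave 39 genes with 61 start sites, of 9838 genes and 42207 sites in all. Of the 39 genes, 21 carried a large subunit name (Rpl) and 18 a small subunit name (Rps). RefSeq lists Rps3a2 and Rps3a3 as pseudogenes, and both were kept because the symbol rule takes them.

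The libraries came from gastrocnemius muscle of C57BL/6 mice about 8 weeks old. The AMPKα2 KO group was homozygous for a deletion in the catalytic domain of Prkaa2, which encodes AMPKα2, a subunit with the kinase activity of AMPK, and the WT group had the gene intact. Each group had 2 animals, with 1 library per animal, no treatment in either group, and no statement in the sources used here that KO and WT animals were littermates. Whole transcriptome start site sequencing (WTSS-seq) copies rRNA-depleted RNA from a semirandom primer and adds an adaptor where the reverse transcriptase reaches the 5′ end. A read therefore marks where an RNA, or a piece of one, begins, and nearby read ends were clustered into an alternative start site (ASS).

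Ribosomal proteins form the 2 subunits of the cytosolic ribosome together with ribosomal RNA, and their genes are transcribed in nearly every cell. Their mRNAs are the classic TOP mRNAs: the transcript begins with a C followed by a run of pyrimidines, the terminal oligopyrimidine tract, through which mTORC1 and the RNA-binding protein LARP1 set how strongly they are translated. AMPK, the kinase that senses a falling energy state of the cell, is known to restrain mTORC1. Many ribosomal protein genes also carry small nucleolar RNAs (snoRNAs) in their introns, and most have numerous processed pseudogenes elsewhere in the genome.

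The bases around the annotated start were read from the RefSeq promoter table (GRCm38.p6), which held 30 of the 39 genes. They show where a full-length ribosomal protein mRNA should begin, and they are given for the members on which the results below turn. Each run covers 10 bases before the annotated start and 20 bases from it, 5′ to 3′ on the strand of the gene. Capitals mark a TOP-like stretch, searched as a C lying at most 5 bases before or after the annotated start and followed by at least 4 further C or T. Members with such a stretch were the following.
Rps24 (chr14:24490668-24490697, plus strand): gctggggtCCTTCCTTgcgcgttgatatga
Rps27l (chr9:66946076-66946105, plus strand): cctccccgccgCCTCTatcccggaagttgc
Rps27rt (chr9:114982720-114982749, minus strand): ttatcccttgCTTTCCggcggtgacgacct
Rps9 (chr7:3704031-3704060, plus strand): cttgtCTCTCTTTgtctcgggcctgagttc
Rpl13a (chr7:45128726-45128755, minus strand): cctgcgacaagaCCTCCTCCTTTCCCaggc
Rpl27a (chr7:109519185-109519214, plus strand): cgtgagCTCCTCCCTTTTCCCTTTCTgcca
Rpl7a (chr2:26910797-26910826, plus strand): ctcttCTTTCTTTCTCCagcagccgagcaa
Rpl15 (chr14:18270967-18270996, minus strand): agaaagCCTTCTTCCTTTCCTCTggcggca
Rps6 (chr4:86857348-86857377, minus strand): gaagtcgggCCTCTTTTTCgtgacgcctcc
The longest stretch of these was that of Rpl27a, with 20 pyrimidines, and the shortest that of Rps27l, with 5. Members without one in this window were the following.
Rpl26 (chr11:68901556-68901585, plus strand): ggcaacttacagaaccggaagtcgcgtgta
Rpl37a (chr1:72711250-72711279, plus strand): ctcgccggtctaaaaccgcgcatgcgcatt
Rpl3l (chr17:24727816-24727845, plus strand): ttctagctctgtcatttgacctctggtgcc
Rps3 (chr7:99483690-99483719, minus strand): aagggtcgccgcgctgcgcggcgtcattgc
Rpsa (chr9:120127756-120127785, plus strand): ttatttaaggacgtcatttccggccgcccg
Rpl3l is the muscle form of Rpl3, and its second annotated start, further inside the gene, also lacked the stretch. Rps24 and Rps27l, listed above with a stretch, each have a second annotated start without one, at chr14:24490753 and chr9:66946413.

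Over all RefSeq ribosomal protein genes that match the symbol rule and are in the promoter table, 32 of 69 (46.4%) had a TOP-like stretch. By promoter, counting each annotated start, the share was 42% of 81, against 18.3% of all 32851 promoters. On the other strand of the same windows the stretch was found in 14.8% of ribosomal protein promoters and 21.4% of all promoters. The stretch was found in 15 of the 30 member genes (50%) and in 17 of the 39 ribosomal protein genes without a site in these libraries (43.6%). Among the genes of mitochondrial ribosomal proteins, which are not counted among the TOP mRNAs, the share was 17 of 69 (24.6%). A match is only a match of letters at an annotated start, and RefSeq starts can lie some bases from the start used in muscle.

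Fewer than 1 in 2 ribosomal protein genes were seen at all. RefSeq holds 89 protein-coding symbols that match the rule, of which 37 (41.6%) had at least 1 ASS, and 52 had none. The genes without a site included Rpl3, Rpl10, Rpl13, Rpl22, Rpl39, Rps4x, Rps27 and Rps27a. The last of these encodes ubiquitin fused to a ribosomal protein. The share among all 21900 protein-coding symbols was 36.4%. Ribosomal protein genes are short, with a median span of 3.71 kb for members against 35.3 kb for all protein-coding genes with a site. In the span range that holds the middle of the ribosomal protein genes, 2.33 to 4.6 kb, 42.2% of 45 ribosomal protein genes had a site, against 17.1% of 1894 protein-coding genes of that size. A gene without a row had no site with at least 10 reads over the 4 libraries, the lowest total in the table, and the absence is not a measurement of 0.

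The reads fell on few genes. The 61 sites held 6762 reads over the 4 libraries, and Rpl26 alone held 51.3% of them. The 5 members with most reads held 75% and the 10 with most reads 86.2%. A member site had between 10 and 3450 reads, with a median of 21 reads, close to the median of 19 reads over all sites. There were 27 member sites with under 20 reads and 7 with at least 100 reads. A site was between 1 and 114 bases wide, with a median of 15 bases against 13 bases over all sites with a gene. Of the members, 22 had 1 site, 13 had 2 sites and 4 had 3 or more, so that 43.6% had more than 1 site, against 61.8% of all genes. Rpl4, a protein of the polypeptide exit tunnel, had the most sites, 4, and Rpl26, Rps3 and Rps3a2 had 3 each. In the 17 members with more than 1 site, the main site held between 33.3% and 99.4% of the reads of the gene, with a median of 66.7%.

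The ribosomal protein reads rarely began at the annotated 5′ end, as judged by the position the authors gave each site. For the 45 sites of the 30 members in the promoter table, none lay within 10 bases of an annotated start, 1 lay within 50 bases and 3 lay within 100 bases. The nearest was the site of Rps27l, 27 bases downstream of a start, with 245 reads, and its cluster of read ends (chr9:66946078-66946147) covered that start. The site of Rps27rt lay 64 bases inside and the exonic site of Rpl3l 100 bases inside. None lay upstream of the start, and the median distance was 2717 bases downstream. The share within 50 bases was 2.22% of these member sites and 2.47% of 29085 sites of all protein-coding genes with an annotated start. Within 10 bases these shares were 0% and 0.76%, and within 100 bases 6.67% and 3.12%, so the order of members and other genes depended on the window. By reads, 4.06% of the member reads lay within 50 bases and 6.01% within 100 bases. For the genes without an entry in the promoter table, the outer edge of the RefSeq gene showed a few more sites near a 5′ end. Rplp1, a stalk protein, had a site 25 bases outside it with 15 reads, and Rps20 had a site 57 bases inside with 35 reads. Measured from that edge, 5 of 60 member sites (8.33%) lay within 100 bases, against 2.19% of sites of all protein-coding genes.

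Most sites lay beyond the midpoint of the gene instead. Along the gene, from 0% at its start to 100% at its end, the median place was 72% for the 60 member sites that could be placed and 61.2% for all protein-coding sites. There were 41 member sites (68.3%) beyond the midpoint of the gene, against 58.6% of all protein-coding sites. The last 10 percent of the gene held 12 member sites (20%), against 22.6% of all protein-coding sites. A further 5 (8.33%) lay past the annotated end, where 1.19% of all protein-coding sites did. Among them were sites of Rps6, 22 bases past the end, Rpl15 at 495 bases, Rpl37a at 545 bases and Rpl7l1 at 1556 bases. Reads that begin past the annotated end need not be RNA of the gene named. Rps6 is the phosphorylated protein by which S6 kinase activity is commonly followed. The plot of reads against place along the gene shows Rpl26 and Rps24 in the first 25 percent of the gene and the main sites of Rps20 and Rpl3l near its end and that of Rpl37a past it.

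**Figure D1:**
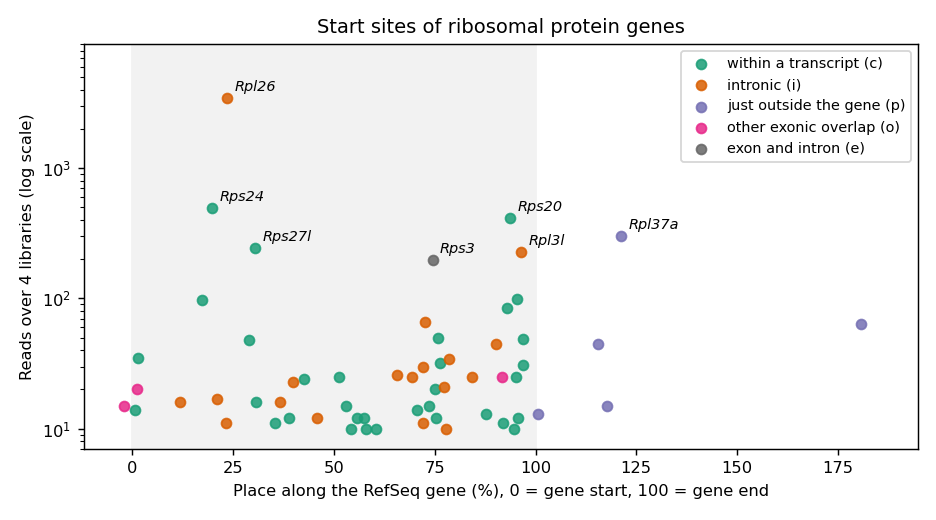
Place of 60 ribosomal protein start sites along their RefSeq genes (horizontal axis, in percent of gene length, with the gene shaded) against the reads of each site summed over the 4 libraries (vertical axis, log scale), coloured by class code. Sites with at least 100 reads are named, and 41 of the 60 sites lie beyond the midpoint.

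The class code gives how a site lies against the annotated transcripts. Code c, a site contained in a transcript, was the most common, with 33 of the 61 sites (54.1%), against 38.6% of the other sites with a gene. Code i, an intronic site, had 19 sites (31.1%), against 52%. Code p, just outside the gene, had 5 sites (8.2%), against 1.52%, and these are the 5 sites past the gene end. Codes o, another overlap with an exon, and e, exon with intron, had 3 sites and 1 site, and no member site was antisense to an exon (code x). By reads the order was different, since the intronic site of Rpl26 held 99.4% of the reads of its gene and that gene 84.5% of the intronic reads. Intronic sites thus held 60.4% of all member reads and 19.3% of those outside Rpl26, and code c held 29.3% and 59.6%. In all 4 libraries the intronic share was above that of code c, with 67.4% and 56% in KO against 58.7% and 54.3% in WT.

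**Figure D2:**
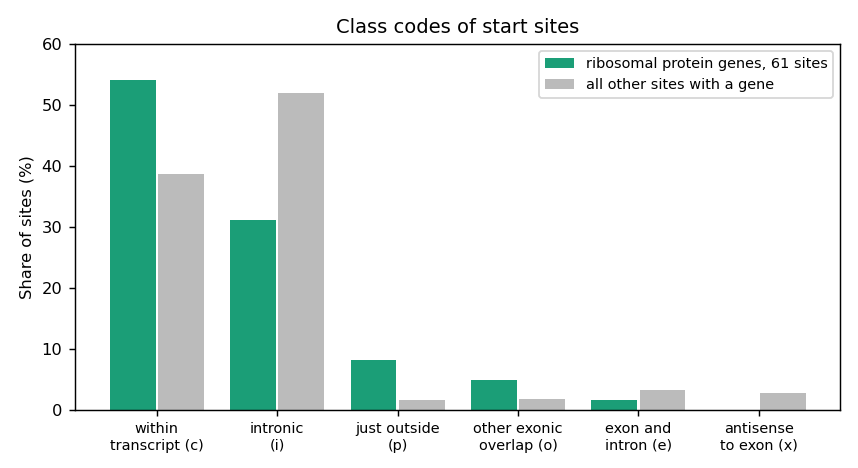
Share of start sites in percent (vertical axis, from 0) by class code (horizontal axis), for the 61 sites of ribosomal protein genes and for all other sites with a gene. Code c holds 54.1% of the member sites and 38.6% of the others, and code p 8.2% and 1.52%.

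Of the 19 intronic member sites, 3 lay directly ahead of an annotated snoRNA, at 0 to 30 bases from its 5′ end as read on the strand of the site. The site of Rpl13a (chr7:45126438-45126441) lay 4 bases ahead of Snord35a, that of Rpl27a (chr7:109521275-109521277) 4 bases ahead of LOC115485611, and that of Rpl7a (chr2:26911233-26911264) 28 bases ahead of Gm23969 and overlapped it. In reads, Rpl13a had 22 and 8 in KO against 22 and 14 in WT, Rpl27a 16 and 4 in KO against 0 and 6 in WT, and Rpl7a 4 and 7 in KO against 1 and 5 in WT. Among all 21013 intronic sites, 12 (0.0571%) lay in the same place against a snoRNA, so these 3 genes hold 3 of the 12. The strand of the snoRNA is not in the gene table used here. Most genes have no snoRNA, and the share of intronic sites was not compared within snoRNA hosts. The intronic site of Rpl26 (chr11:68902235-68902267) was not among them, and RefSeq has no other gene at that place.

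In these data fewer cells of a kind and less RNA per cell cannot be told apart. Ribosomal protein genes took about the same part of the reads in both groups. Of all reads, they held 0.0861% and 0.0826% in KO against 0.0915% and 0.0748% in WT. The reads counted as nuclear leave out the mitochondrial reads and a further part of each library. In KO replicate 1 they numbered 1835732 of 2900279 reads, with 19.7% of reads mitochondrial. Of these nuclear reads, ribosomal protein genes held 0.136% and 0.131% in KO against 0.145% and 0.128% in WT. The means were 0.134% ± 0.00348 in KO against 0.137% ± 0.012 in WT (SD, n = 2 each). The 2 KO values lay between the 2 WT values. Rpl26 made up 0.0809% and 0.0611% in KO against 0.0685% and 0.0592% in WT. Without Rpl26, the share was 0.0551% and 0.07% in KO against 0.077% and 0.0692% in WT, and the groups overlapped again. Library totals ran from 1300069 to 2900279 reads, both KO libraries being deeper, and sites with a read numbered 58 and 51 of 61 in KO against 45 and 48 in WT. Where a group had no read at a site, a floor of 3 reads per library was used for a bound, which amounts to 1.03 to 2.31 ppm of the library.

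**Figure D3:**
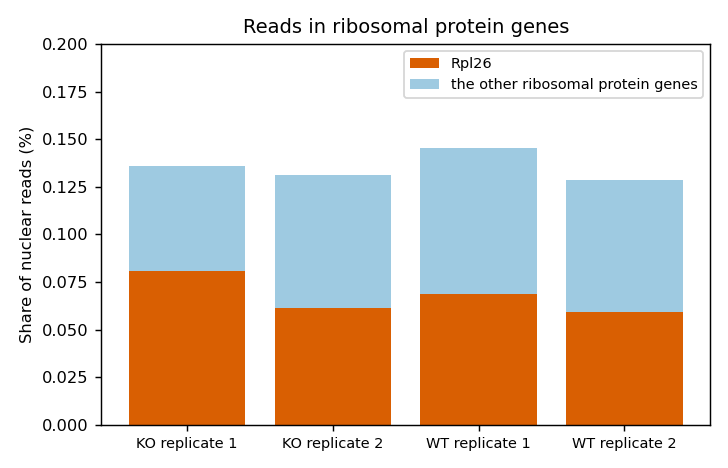
Share of nuclear reads in percent (vertical axis, from 0) held by ribosomal protein genes in each of the 4 libraries, divided into Rpl26 and the other 38 genes. The bars run from 0.128% to 0.145% and the groups overlap.

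Prkaa2 itself did not separate the groups, with 149 and 182.6 normalized counts (reads divided by the DESeq2 size factor of the library) in KO against 152.8 and 185.6 in WT (DESeq2 log2 fold change -0.03, SE 0.50, adjusted p = 0.994). The deletion removes part of the coding sequence, so reads that begin elsewhere in the gene do not check the labels. All 7 skeletal muscle markers had sites, among them Acta1 and Ckm, and their summed normalized counts were 25000 and 35700 in KO against 23800 and 40800 in WT. Markers of other cells were present too. The 3 macrophage markers with a site, of 4 listed, summed to 122 and 138 in KO against 234 and 242 in WT, the 6 fibroblast markers to 2590 and 2130 in KO against 3170 and 3090 in WT, and the 4 endothelial markers to 46.4 and 73.4 in KO against 85.5 and 87.2 in WT. Cd163, Adgre1 and Csf1r, the macrophage markers with a site, were read in all 4 libraries. Adgre1 had 33 and 17.5 in KO against 126 and 72.2 in WT and Cd163 70.9 and 88.3 against 101 and 139.5, while Csf1r had 18.3 and 32.3 in KO against 7.01 and 29.9 in WT and overlapped. Of the fibroblast and endothelial markers, Dcn, Col3a1, Pdgfra and Pecam1 were lower in both KO libraries. Col1a1, Col1a2, Lum, Tek, Kdr and Cdh5 overlapped. The macrophage, fibroblast and endothelial sums were lower in both KO libraries, and 0 of their tested genes were called. Their part in the values below was not tested. The 5 adipocyte markers summed to 5880 and 2940 in KO against 5830 and 3260 in WT, with overlapping groups. Other sums were low. Blood markers summed to 28.1 and 24.5 in KO against 21 and 16.2 in WT and satellite cell markers to 15.9 and 11.4 in KO against 4.21 and 1.25 in WT, both higher in both KO libraries, and Schwann cell markers to 1.22 and 20.1 in KO against 18.2 and 2.49 in WT.

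At the level of genes, no ribosomal protein gene was called a DE-gene. Counts summed over the sites of a gene were compared with the Wald test of DESeq2, fitted on all 9838 genes, with a Benjamini-Hochberg adjusted p-value under 0.1 as the threshold. Independent filtering left 13 of the 39 members with an adjusted p-value, and 0 of these passed, where 2.67% of the 4688 genes tested did. The 26 others had mean normalized counts of 1.84 to 15.3 and no adjusted p-value. An unadjusted p under 0.05 was found for 1 of the 13 tested members, Rps24, and, among the untested, for Rpl15. With the quasi-likelihood test of edgeR, 17 members were tested, 0 passed, 2 (Rps24 and Rpl15) had an unadjusted p under 0.05, and the smallest adjusted p was 0.166. With 2 libraries against 2, the smallest p that a two-sided exact permutation test allows is 0.33, so the p-values rest on the spread that DESeq2 and edgeR share across genes. Counts of members with near-identical copies elsewhere in the genome are uncertain, because how reads with several places were handled is not given in the sources used here.

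The median log2 fold change of the 13 tested members was -0.269, against 0.0101 over all tested genes, with 5 positive and 8 negative. The sign of the median was not the same without each library, and the members tested also changed. It was 0.096 over 12 members without KO replicate 1 and 0.201 over 7 without WT replicate 1. It was -0.627 over 14 members without KO replicate 2 and -0.0263 over 10 without WT replicate 2. Both KO libraries were below both WT libraries in 3 of these 13 tested members, Rps24, Rps3a2 and Rpl13a, and above in 0 of them. The untested members, with lower counts, are left out here, and some of them lay above and others below. Over all tested genes, 19.4% were below in this sense and 22% above.

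**Figure D4:**
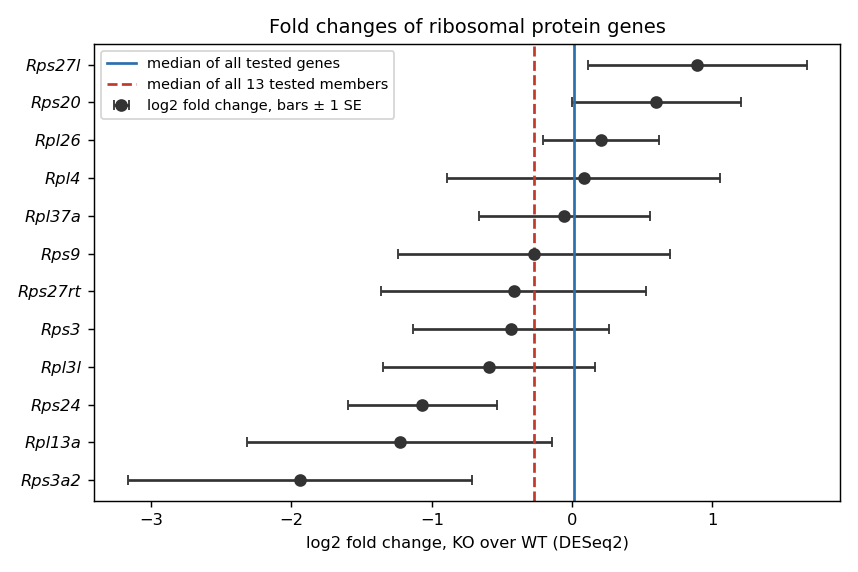
log2 fold change of KO over WT (horizontal axis, DESeq2) for the 12 tested ribosomal protein genes with a read in every library, with bars of 1 SE. The median of all 13 tested members, -0.269 (dashed line), lies below that of all tested genes, 0.0101 (solid line), and the bars of Rps24, Rpl13a and Rps3a2 lie below 0, that of Rps27l above 0, and the others cross 0.

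Rps24, a protein of the small subunit, had the smallest unadjusted p of the 13 tested members. Its normalized counts were 95.3 and 76.9 in KO against 203 and 158 in WT, or 86.1 ± 13 against 180.8 ± 31.9 (SD, n = 2 each). The groups did not overlap, and the log2 fold change was -1.07 (SE 0.53). The unadjusted p was 0.0439 and the DESeq2 adjusted p 0.496, so the difference did not pass the threshold. Nearly all of it lay in a broad site of 107 bases within the transcript (chr14:24491903-24492009). This site lay 1241 bases inside the TOP-like start shown above and 1166 bases inside the second annotated start. It had 151 and 81 reads in KO against 136 and 125 in WT, or 99.1 and 69.9 normalized counts against 184.6 and 144.4. The site itself was not called (DESeq2 log2 fold change -0.96, SE 0.67, adjusted p = 0.84).

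Rpl26, a protein at the exit of the peptide tunnel, gave the highest level of all members. It had 907 and 774 normalized counts in KO against 785 and 674 in WT, so the groups overlapped (DESeq2 log2 fold change 0.20, SE 0.41, adjusted p = 0.983). Per kb of gene span it also led, with 264 normalized counts per kb, ahead of Rps27rt with 65.7 and Rpl37a with 36.6. Almost all of these reads began in its intron, 700 bases from the start.

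Rps20, a small subunit protein, had 88 and 160.8 normalized counts in KO against 98.2 and 66 in WT (log2 fold change 0.60, SE 0.60). Its main site (chr4:3831832-3831863) lay in the last 10 percent of the gene. Rpl37a had 64.8 and 119 in KO against 111 and 79.7 in WT (log2 fold change -0.06, SE 0.61), with most reads at the site past its end (chr1:72714356-72714361), which need not be Rpl37a RNA. In both genes the KO and WT values overlapped.

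Paralogs were read only in part. Rpl3l, which takes the place of Rpl3 in mature muscle, had 25.7 and 77.8 normalized counts in KO against 108 and 47.3 in WT (log2 fold change -0.59, SE 0.76), and the range of KO overlapped that of WT. Most of its reads came from an intronic site on the strand opposite to the gene (chr17:24735846-24735855), the only member site placed so, and these need not be Rpl3l RNA. Rps27l, an inducible paralog of Rps27, had 31.8 and 116 in KO against 42.1 and 37.4 in WT (log2 fold change 0.89, SE 0.78). The higher KO mean was made by 1 library: without KO replicate 2 the log2 fold change was -0.31. Rpl7 had 1.22 and 1.75 in KO against 0 and 8.72 in WT, and its paralog Rpl7l1 had 9.16 and 0 in KO against 0 in both WT libraries. The only site of Rpl7l1 lay past its gene end. The parent genes Rpl3 and Rps27 had no site, and neither had Rpl22l1, Rpl10l, Rpl39l or Rps4l.

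The other tested members had overlapping groups or low counts. Rps3, a small subunit protein that also acts in DNA repair, had 46.4 and 44.6 normalized counts in KO against 78.5 and 44.8 in WT (log2 fold change -0.44, SE 0.70). Rps27rt had 13.4 and 28.8 in KO against 22.4 and 33.6 in WT. Its site lies inside Osbpl10 as well, as that of Rps3a3 lies inside Pde4d, so the gene of origin is uncertain for both. Rps9 had 15.3 and 28.8 in KO against 15.4 and 37.4 in WT. Rpl4 had 22.6 and 22.7 in KO against 14 and 28.6 in WT.

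Rpl13a had 13.4 and 6.99 in KO against 30.9 and 17.4 in WT (DESeq2 log2 fold change -1.23, SE 1.09, adjusted p = 0.895), all from the intronic site ahead of Snord35a.

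**Figure D5:**
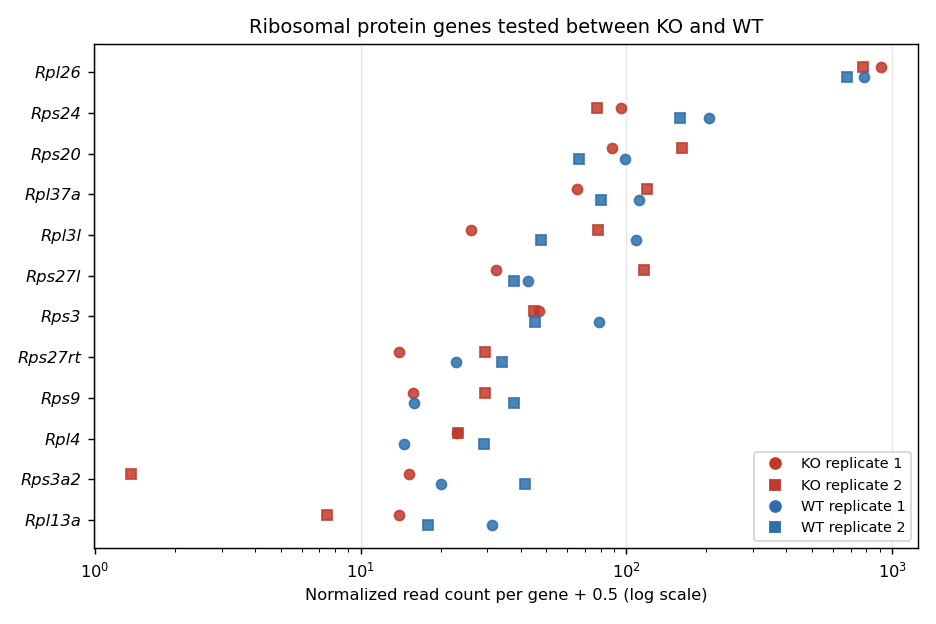
Normalized read counts per gene plus 0.5 (horizontal axis, log scale) of the 12 tested ribosomal protein genes with a read in every library, for the 2 KO and the 2 WT libraries, with 1 point per library. KO and WT points are separate for Rps24, Rps3a2 and Rpl13a and overlap for the other 9 genes.

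The acidic proteins of the ribosomal stalk, which recruit translation factors, stood at low levels. Rplp0 had 4.28 and 6.12 normalized counts in KO against 7.01 and 9.96 in WT, Rplp1 6.72 and 14 in KO against 4.21 and 1.25 in WT, and Rplp2 3.05 and 1.75 in KO against 1.4 and 4.98 in WT. Rplp0 lay lower and Rplp1 higher in both KO libraries, at counts too low for an adjusted p-value. Rps6 had 4.28 and 5.24 in KO against 0 in both WT libraries, with 13 reads in all. Its only site lay 22 bases past the gene end, so these reads need not be Rps6 RNA.

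At the level of sites, 1 of the 16 member sites tested was a DE-ASS, against 3.21% of the 11112 sites tested. It was the site of Rps3a2 at chr14:88123572-88123615, which had 2 and 1 reads in KO against 14 and 31 in WT. Both KO libraries were lower than both WT libraries. The summed reads were 25.1 times higher in WT after scaling by the size factors, with a 95% exact (Clopper-Pearson) interval of 8.06 to 126, which covers counting error only. The log2 fold change was -4.64 (SE 1.53) and the DESeq2 adjusted p 0.0843. The call was not made by edgeR (adjusted p = 0.122), nor without any of the 4 libraries in turn. The 2 other Rps3a2 sites had 11 and 0 reads in KO against 0 and 1 in WT each, so that the gene summed to 14.7 and 0.874 normalized counts in KO against 19.6 and 41.1 in WT (DESeq2 log2 fold change -1.94, SE 1.23, adjusted p = 0.703). Rps3a2 is a pseudogene of Rps3a1, and reads of near-identical copies may have been placed on either. Rps3a1 had 7.33 and 3.5 normalized counts in KO against 5.61 and 6.23 in WT, and overlapped.

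The median log2 fold change of the 16 tested sites was -0.365, against 0.0965 over all tested sites, with 6 positive and 10 negative. With edgeR, 18 sites were tested and 0 called, and 3 had an unadjusted p under 0.05. The sites with an unadjusted DESeq2 p under 0.05 were also 3, the 1 of Rps3a2 and 2 without an adjusted p-value.

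Both untested sites were absent from a whole group. In Rpsa, the small subunit protein also known as the laminin receptor, the exonic site at chr9:120130120-120130127 was read 0 times in both KO libraries and had 12 and 13 reads in WT, at least 6.87-fold lower in KO when KO was set to the floor of 3 reads per library. The other Rpsa site, intronic, had 23 and 1 reads in KO against 5 and 5 in WT, and the gene as a whole had 14.1 and 0.874 normalized counts in KO against 23.8 and 22.4 in WT. Its groups did not overlap either, but its mean was too low for an adjusted p-value (log2 fold change -1.60, SE 1.29). In Rpl15, the site at chr14:18267324-18267338, 495 bases past the gene, had 22 and 23 reads in KO against 0 in both WT libraries, at least 4.55-fold higher in KO against the same floor (unadjusted p = 0.00485). The TOP-like start of Rpl15 shown above lies 3658 bases away, and no site was found there. It was the only Rpl15 site, and its reads need not be Rpl15 RNA. In all, 5 member sites (8.2%) had no read in either WT library, and 2 (3.28%) none in either KO library. Over all sites with a gene these shares were 11.6% and 2.28%, with the KO libraries being deeper.

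To see whether members shifted between their own sites, diffSpliceDGE (edgeR) was run over all genes with at least 2 sites that passed its filter, and site p-values were joined per gene by the Simes method. Of the 2145 genes that could be tested, 1.77% were called, and 2 members were among the genes tested, of which 0 were called. In Rpl37a the site near the end of the gene had 33 and 12 reads in KO against 29 and 11 in WT, and the site past the end 73 and 124 in KO against 50 and 53 in WT (edgeR gene-level F test, adjusted p = 0.851). In Rps20 the site near the gene start had 2 and 26 reads in KO against 7 and 0 in WT, and the main site 142 and 158 in KO against 63 and 53 in WT (edgeR gene-level F test, adjusted p = 0.948). These are raw reads, and the KO libraries were deeper. In normalized counts, the Rpl37a site past the end had 47.9 and 107 in KO against 67.9 and 61.2 in WT, and overlapped. The main Rps20 site had 93.2 and 136.4 in KO against 85.5 and 61.2 in WT, and was not called. The 15 other members with more than 1 site had too few reads to be tested.

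Other gene lists of protein synthesis were fitted in the same table, where 2.67% of all genes tested were called and 50.5% had a positive log2 fold change. Of the mitochondrial ribosomal proteins, 40 genes had 81 sites, and 14 of them were tested. Here 2 rose and 0 fell, 11 of the 14 were positive, and the median log2 fold change was 0.96, against -0.269 for the cytosolic ribosomal proteins and 0.0101 for all genes. The difference between these lists was not tested. Mrps23, of the small mitochondrial subunit, had 71.5 and 42.8 normalized counts in KO against 0 in both WT libraries (DESeq2 adjusted p = 0.000607), all from intronic sites on an alternate scaffold of the assembly. Mrpl1, of the large mitochondrial subunit, had 244 and 176.5 in KO against 72.9 and 56 in WT (DESeq2 log2 fold change 1.71, SE 0.54, adjusted p = 0.0747) and was not called by edgeR (adjusted p = 0.204). Mrpl1 also lost its call without each library in turn (DESeq2 adjusted p from 0.208 to 0.999) and with exonic sense sites only (log2 fold change 0.57), and Mrps23 fell under the independent filter without KO replicate 1 and kept its call without each other library. Mrps9 had the highest level, 1505 and 1194 in KO against 501 and 945 in WT, and Mrpl16 had 293 and 224 in KO against 179.5 and 18.7 in WT, and neither passed.

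Of 15 other TOP mRNAs tested, 1 rose, 0 fell and the median was -0.157. Tpt1, the translationally controlled tumour protein, had 39.7 and 55 normalized counts in KO against 2.8 and 0 in WT (DESeq2 adjusted p = 0.0159, edgeR adjusted p = 0.0694), from 1 intronic site. The DESeq2 adjusted p of Tpt1 was 0.279 without KO replicate 1, 0.55 without KO replicate 2, 0.236 without WT replicate 2 and 0.0652 without WT replicate 1. Eif3a, an initiation factor, had 263 and 364 in KO against 429 and 557 in WT, and Naca, a chaperone of nascent chains, had 172 and 253 in KO against 143 and 194 in WT, and neither passed. Of 8 ribosome biogenesis genes tested, 0 rose, 1 fell and the median was -0.348. Nip7, which acts in pre-rRNA processing, had 12.8 and 4.37 in KO against 241 and 375 in WT (DESeq2 log2 fold change -5.12, SE 0.64, adjusted p = 1.76e-12, edgeR adjusted p = 0.00596), from 1 exonic site, and it kept its call without each library in turn. Ncl, the nucleolar protein nucleolin, had 468 and 818 in KO against 712 and 867 in WT. Of 17 initiation factors of the eIF2, eIF3, eIF4 and eIF5 groups, 0 passed, with a median of 0.0726, 1 unadjusted DESeq2 p under 0.05 (Eif3c), and 0 called by edgeR. Eif4a2, an RNA helicase of initiation, had 329 and 475 in KO against 509 and 565 in WT (log2 fold change -0.42, SE 0.44), and Eif4g2, a scaffold factor of cap-independent initiation, had 299.9 and 840 in KO against 300.1 and 284 in WT (log2 fold change 0.96, SE 0.53), with KO replicate 2 alone far above the rest.

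Of 8 genes of translation control by mTORC1 tested, 0 rose and 1 fell, and the median log2 fold change was 0.0512. It was Larp1, whose protein binds the TOP stretch, with 46.4 and 48.9 normalized counts in KO against 163 and 172 in WT (DESeq2 log2 fold change -1.81, SE 0.55, adjusted p = 0.0543, edgeR adjusted p = 0.163). Of its 9 sites, the intronic site at chr11:58030111-58030112 held most of the difference, with 7 and 17 reads in KO against 73 and 74 in WT (DESeq2 adjusted p = 0.0203). With exonic sense sites only, the log2 fold change of Larp1 was -0.73 (DESeq2 adjusted p = 1), and the call was lost, as it was without each library in turn (DESeq2 adjusted p from 0.329 to 0.659). Eif4ebp2, an inhibitor of cap-dependent translation, had 214 and 379 in KO against 121 and 152 in WT and did not pass (DESeq2 adjusted p = 0.416), and Tsc1 had 104 and 292 in KO against 119 and 189 in WT.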

How the data were processed

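WTSS-seq libraries of gastrocnemius muscle from 2 AMPKα2 KO and 2 WT mice were analysed from 1 table of raw read counts per ASS, which the authors deposited after mapping to GRCm38.p5 (per the labels), clustering nearby read ends, described for 24 bases in the sister 3′-end libraries, and giving each site a gene and a Cuffcompare class code. Whether reads mapping to several copies were kept is not given in the sources used here. No molecular identifiers were described, so PCR copies count as reads, and intervals and floors cover counting error only.

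Counts were compared with DESeq2 1.42.0 (Wald test, adjusted p under 0.1) and edgeR 4.0.16 in R 4.3.3, fitted on all sites or genes. The fits were also run on simulated counts, where only features with more reads than most members were changed. That run does not cover members with few reads. Tables were handled in Python 3.11.15. Positions and letters came from RefSeq tables of GRCm38.p6, whose primary chromosomes are those of GRCm38.p5. The members and lists were chosen with earlier results of these data known. Named genes were the 10 members with the highest mean, paralog pairs, Rplp0, Rplp1, Rplp2, Rpsa, Rps6 and Rps27a, called members, the 5 smallest p-values per direction, members with most sites and those at a snoRNA, and, for each other list, called genes and the 2 with the highest mean. Eif3c, Eif4ebp2, Rps3a1, Rps3a3, Rpl15, Rpl27a and Rpl7l1 were also named for values given in the text. Some members' results are not reported here.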

Additional observations from a re-analysis of the deposited data

How the results depend on the processing

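No ribosomal protein gene was called under edgeR, TMM factors, independent filtering off, a threshold of 0.05, exonic sense sites only, the replicate block or without any library in turn (0 in each), and start site usage gave 0 members under the gene-level F test, the threshold of 0.05, the replicate block and each left-out library. The 1 called site, in Rps3a2, depended on the setting: edgeR gave 0 called member sites, TMM factors 2 (Rps3a2 and the exonic site of Rpsa, both lower in KO), independent filtering off 0, a threshold of 0.05 0, the replicate block 0, and 0 without each library. Whether the replicate numbers pair the libraries is not given in the sources used here. The deviations of KO 1 and WT 1 correlated at 0.0718 over 11242 sites, which cannot decide it with 2 libraries per group. The block adjusts for a shared number only. The median log2 fold change of the tested members (-0.269) was -0.446 with edgeR, -0.416 with TMM factors, -0.254 with library totals, -0.28 with exonic sense sites only, -0.417 and -0.0556 over members with a mean of at least 10 and 50 normalized counts, -0.294 with the replicate block, and ran from -0.627 to 0.201 without each library, the highest value without WT replicate 1, when 7 members were tested. The difference in the share of nuclear reads, KO minus WT, was -0.0034 percentage points and ran from -0.0115 to 0.0055 without each library. Within 10 bases of the start, the share of member reads was 0% instead of 4.06% within 50 bases, since the window is narrower. With edgeR, the called mitochondrial ribosomal proteins numbered 1 instead of 2 and the called mTORC1 genes 0 instead of 1. With the replicate block, Mrps23 (adjusted p = 0.634, DESeq2), Mrpl1 and Larp1 (0.152 each) were no longer called, and Tpt1 (0.0478) and Nip7 still were. The causes were not tested. Depth limited the tests to members with a mean of at least 16.5 normalized counts per gene or 8.76 per site.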
